A study of Arabidopsis thaliana with 16 samples.

Results

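The plant cell wall is loosened and remodelled as cells grow, and 3 kinds of wall genes are described here across far-red light and the nuclear entry of a transcription factor. The set holds every gene whose symbol is EXPA, EXPB, EXLA, EXLB, TBL or PME followed by a number and that is alone on a probe set, plus the pectate lyase gene AT1G67750. It has 42 members, out of 13356 genes that are alone on at least 1 probe set: 18 expansin genes, 22 TBL genes and 2 pectin enzyme genes, the other of these being PME61. The RefSeq table lists 24 EXPA, 6 EXPB, 3 EXLA, 1 EXLB, 41 TBL and 10 PME symbols. Of these, 10, 4, 3, 1, 22 and 1 are paired alone with a probe set here, so a single PME gene is in the set. A further 4 genes that carry such a name only as a synonym are outside it.

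Expansins are secreted proteins that loosen the contacts between cellulose and other wall polymers, so that a wall under turgor can extend. EXPA and EXPB genes encode the alpha and beta expansins, and the EXLA and EXLB genes encode related proteins whose loosening activity is not established. TBL (TRICHOME BIREFRINGENCE-LIKE) proteins are mostly transferases that place acetyl groups on wall polysaccharides such as xylan, mannan and xyloglucan. Pectin methylesterases remove methyl groups from pectin, and pectate lyases cut the chains so exposed. Seedlings grown in the dark elongate their hypocotyl by cell expansion, and far-red light, sensed by phytochrome A, restrains that growth.

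The series holds 16 Affymetrix ATH1 arrays of 4-day-old seedlings in 4 groups of 4 described as independent biological replicates: far-red DEX, far-red mock, dark DEX and dark mock. Every group carries the transgene FHY3p:FHY3-GR in the fhy3-4 mutant, in which FHY3, a transcription factor of phytochrome A signalling, is made from its own promoter as a fusion with the glucocorticoid receptor (GR). The fusion stays in the cytoplasm until 10 µM dexamethasone (DEX) lets it enter the nucleus, and DEX or an equal volume of ethanol (mock) was given for 2 h. Far-red seedlings had continuous far-red light and dark seedlings (D in the labels) none. No group lacks the transgene or the fhy3-4 allele, so an effect of nuclear FHY3-GR and an effect of the steroid itself cannot be told apart. Whole seedlings were used, so fewer cells of a type and less RNA per cell cannot be told apart either.

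All values are log2 signals per probe set as the authors normalised them, so a difference of 1 is a doubling, and levels of different genes are not compared because their probes differ. A gene is called changed where the adjusted p (limma, moderated two-sided test, Benjamini and Hochberg over all 22746 probe sets) is under 0.05. Arrays of 1 group correlated at 0.996 to 0.998 and array medians ran from 6.60 to 6.68. Of the green tissue markers, 2 of 4 were measured: RCA averaged 13.31 in far-red mock and 11.84 in dark mock, and PSAN 12.18 and 10.28 in the same groups. The root hair genes EXPA7 and EXPA18 (2 of 6 measured, both members here), the guard cell gene FAMA (listed as FMA, 1 of 3) and 2 of 5 seed storage genes were also measured, and none of the 5 xylem or 2 pollen genes was. Measured here means paired alone with a probe set. The other genes may be read by probe sets without a gene name or with several genes.

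**Figure D1:**
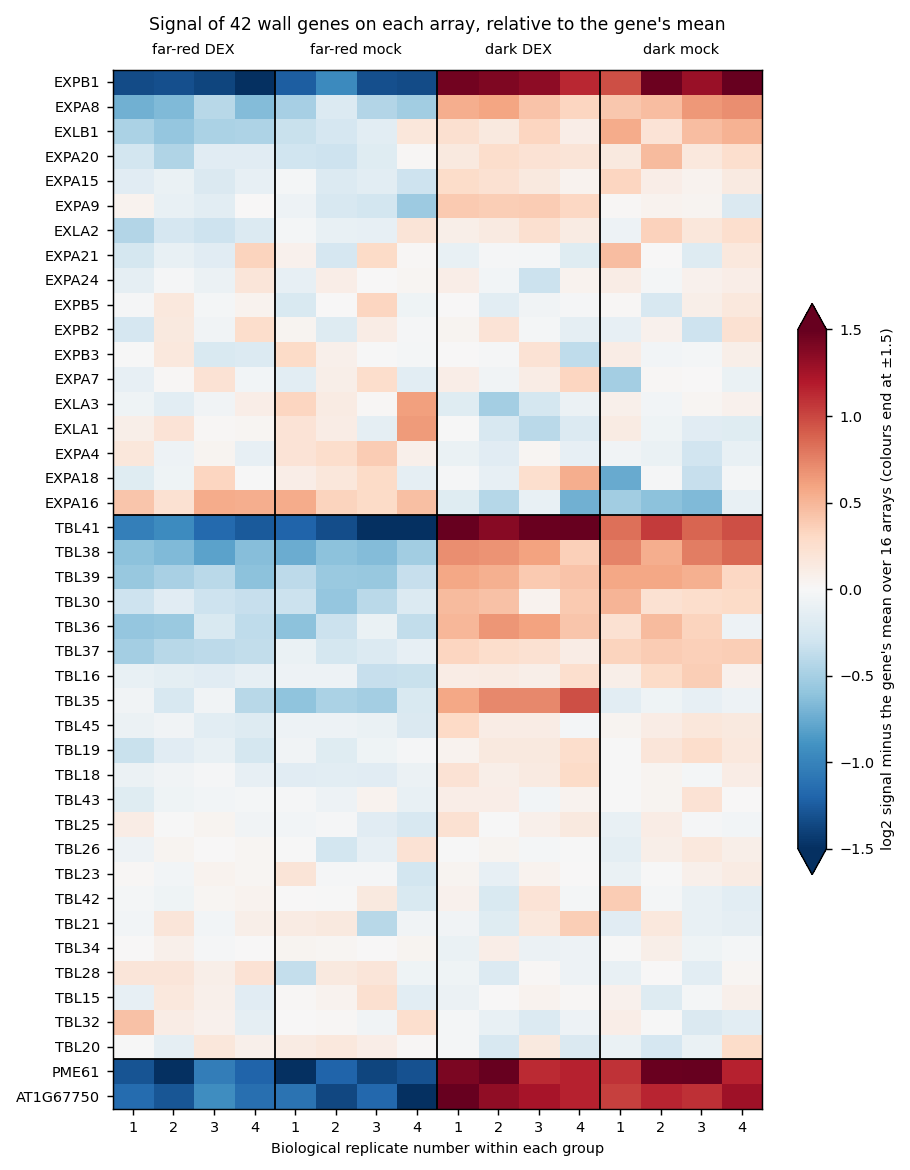
Each row is a gene and each column an array, in the order far-red DEX, far-red mock, dark DEX and dark mock with replicates 1 to 4 in each; colour gives the log2 signal minus the gene's mean over 16 arrays, and black lines part the groups and the 3 families. EXPB1, TBL41, PME61 and AT1G67750 are low on all 8 far-red arrays and high on all 8 dark arrays, while TBL35 stands out on the 4 dark DEX arrays.

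The first comparison, far-red against dark under mock, asks what far-red light does to these genes while FHY3-GR is held outside the nucleus. Of the 42 genes, 19 fell and 2 rose, and 21 were not called. These and the following counts of the 42 include AT1G67750, which was added by name with earlier results of these data known. The members, lists and naming rule were also chosen with such results known. A share of the set or of a family set beside that of all probe sets therefore describes these genes and is not a test of the families. Over all probe sets 38.6% were called, 20.8% lower and 17.8% higher, against 45.2% lower and 4.76% higher among the 42. The median log2 change was -0.10 over the 42 genes and -0.00 over all probe sets tested. The falls were unevenly sized. EXPB1, TBL41, TBL38, PME61 and AT1G67750 changed by more than 1 log2 unit, all 5 downwards. Of all probe sets 4.44% changed by that much in either direction. All 5 genes had been named beforehand with earlier results of these data known, so their count is no measure of the families. Markers of other tissues moved with light in the other direction, RCA by 1.46 and PSAN by 1.91 on the log2 scale, as did FAMA by 0.27 and the seed storage genes AT2G28490 by 0.47 and PAP85 by 0.66, and their part in these changes was not tested. The actin 3′ minus 5′ control signal, a sign of RNA integrity, also moved with light: it averaged 0.21 in far-red mock (-0.01 to 0.34) and -0.15 in dark mock (-0.25 to -0.06), and 0.01 in far-red DEX (-0.10 to 0.11) and -0.27 in dark DEX (-0.41 to -0.17). The ubiquitin and GAPDH controls overlapped between the lights, and the part of RNA integrity was not tested.

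Among the 18 expansin genes 6 fell and 2 rose, so 44.4% were called against 38.6% of all probe sets. By direction 33.3% fell and 11.1% rose, against 20.8% and 17.8% of all probe sets. Called or not, 9 changes were positive and 9 negative, with a median log2 change of -0.03. EXPB1, a beta expansin, had signals of 5.08, 5.35, 4.99 and 4.97 on the far-red mock arrays, against 7.27, 7.78, 7.60 and 7.83 on the dark mock arrays. The 4 far-red arrays all lay far below the 4 dark arrays, a 5.75-fold fall (log2 change -2.52 ± 0.12, SE; adjusted p = 5.4e-13). The far-red signals were not far above the dim end of the arrays, whose lower quartiles ran from 4.38 to 4.50. The files give no background, so this fold is a lower limit if those signals were not above it.

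EXPA8, an alpha expansin, gave 9.13, 9.41, 9.18 and 9.09 in far-red mock, against 10.02, 10.09, 10.27 and 10.32 in dark mock. The groups did not overlap, and the gene fell 1.96-fold (log2 change -0.97 ± 0.09, adjusted p = 2.78e-08). EXLB1, the expansin-like B gene, gave 7.99, 8.08, 8.17 and 8.50 in far-red mock, against 8.88, 8.54, 8.79 and 8.85 in dark mock. Its highest far-red array came within 0.04 of its lowest dark array, and it fell by 0.58 on the log2 scale (SE 0.10, adjusted p = 5.39e-05). EXPA20 and EXPA15 fell less, by 0.45 and 0.33. EXPA9 fell by 0.26 (adjusted p = 0.0229) with overlapping groups, and its call was lost without dark mock replicate 1, 2 or 3 or far-red mock replicate 4 (adjusted p = 0.104 in the last case), and also when only the groups compared were fitted (0.0604).

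A pair of alpha expansin genes moved the other way. EXPA16 gave 6.37, 6.14, 6.09 and 6.25 in far-red mock, against 5.28, 5.19, 5.14 and 5.69 in dark mock. All far-red arrays were above all dark ones, a 1.85-fold rise (log2 change 0.89 ± 0.13, adjusted p = 9.32e-06). EXPA4 gave 8.57, 8.63, 8.75 and 8.44 in far-red mock, against 8.31, 8.26, 8.07 and 8.26 in dark mock, a rise of 0.37 ± 0.08 (adjusted p = 0.000908). By subfamily, 4 of 10 EXPA genes fell and 2 rose, and 1 of 4 EXPB genes, EXPB1, was called. EXLB1 was called, and none of the 3 EXLA genes was called (limma). All 3 had an unadjusted p under 0.05, as had 44.9% of all probe sets. Their log2 changes differed in sign, at 0.28 for EXLA1, 0.24 for EXLA3 and -0.19 for EXLA2.

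The root hair expansins EXPA18 and EXPA7, which act in root hair growth, were not called, at log2 changes of 0.39 ± 0.16 (adjusted p = 0.0549) and 0.16 ± 0.12. For EXPA18 the adjusted p was between 0.0229 and 0.229 over the other settings and samples tried, on both sides of the threshold. EXPA21, EXPA24, EXPB2, EXPB3 and EXPB5 had log2 changes between -0.08 and 0.05. Of these, EXPA21, EXPA24, EXPB3 and EXPB5 belong to the 8 genes of the set whose mean signal was in the dimmest 25% of all probe sets. For light under mock 1 of those 8 was called, against 20 of the 34 brighter genes. The shares called among all dim and all brighter probe sets were not counted, so this split may not be particular to the set.

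Among the 22 TBL genes 11 fell and none rose (limma, adjusted over all probe sets). That is 50% lower, against 20.8% lower and 17.8% higher of all probe sets. None rose at an unadjusted p under 0.05 either. TBL41 fell most: it gave 7.34, 7.21, 7.02 and 7.03 in far-red mock, against 9.37, 9.59, 9.41 and 9.50 in dark mock. The gap between the lowest dark and the highest far-red array was about 2 log2 units, and the fall was 4.99-fold (log2 change -2.32 ± 0.10, adjusted p = 1.17e-13). TBL38, described in Arabidopsis as acting on pectin acetylation in seed mucilage cells, gave 9.26, 9.38, 9.35 and 9.48 in far-red mock, against 10.75, 10.54, 10.77 and 10.86 in dark mock. It fell 2.57-fold (log2 change -1.36 ± 0.08, adjusted p = 5.37e-11), with groups well apart. TBL39 gave 8.81, 8.65, 8.64 and 8.87 in far-red mock, against 9.79, 9.78, 9.74 and 9.51 in dark mock, a 1.95-fold fall with no overlap (log2 change -0.96 ± 0.08, adjusted p = 3.29e-09).

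The other 8 falls of the TBL family ran from -0.70 for TBL30, which takes part in xylan acetylation, to -0.18 for TBL18. TBL36 fell by 0.59, TBL37 by 0.53, TBL16 by 0.41, TBL35 by 0.35, TBL45 by 0.23 and TBL19 by 0.23. The smallest falls, of TBL18 and TBL19, lost their calls in some settings. TBL18 (adjusted p = 0.0283) lost its call without dark mock replicate 2 or 4 or far-red mock replicate 1, 2 or 3, with adjusted p between 0.0566 and 0.0899. It also did so when only the groups compared were fitted (0.0648). TBL19 (adjusted p = 0.0166) lost its call without dark mock replicate 3 (0.0669) or far-red mock replicate 2 (0.0607). Its signal was under the array's own lower quartile on 12 of 16 arrays.

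The 11 TBL genes that were not called had log2 changes between -0.10 and 0.14. They include TBL23, TBL25 and TBL26, which acetylate mannan, TBL28, TBL32 and TBL34, which acetylate xylan, and TBL20 and TBL21, which act on xyloglucan. For TBL34 the 95% interval of the change was -0.10 to 0.16, and for TBL25 it was -0.25 to 0.05, so changes larger than these were not seen. TBL32 is read by a probe set whose suffix marks probes shared with other transcripts, and its value may include them.

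Both pectin enzyme genes fell. AT1G67750 was added to the set by name with earlier results of these data known. These falls therefore say nothing about pectin enzymes as a family. PME61 (also named PME35), a pectin methylesterase known from the stem of Arabidopsis, gave 4.97, 5.41, 5.24 and 5.30 in far-red mock, against 7.69, 8.09, 8.30 and 7.76 in dark mock. That is a 6.65-fold fall (log2 change -2.73 ± 0.13, adjusted p = 1.09e-12), and as for EXPB1 the far-red signals were dim, so the fold may be a lower limit. The pectate lyase gene AT1G67750 gave 6.58, 6.32, 6.51 and 6.06 in far-red mock, against 8.71, 8.82, 8.78 and 8.96 in dark mock, a 5.47-fold fall (log2 change -2.45 ± 0.10, adjusted p = 1.65e-13). In both genes more than 2 log2 units parted the nearest arrays of the groups.

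The second light comparison repeats this under DEX, on the other 8 arrays. It asks whether the light difference is the same after 2 h in which FHY3-GR could enter the nucleus. Both comparisons take 4-day-old seedlings, so growth in far-red with nuclear FHY3-GR throughout was not measured. Of the 42 genes 20 fell and 2 rose, where 39.7% of all probe sets were called, 22.2% lower and 17.5% higher. The calls were close to those under mock: 19 genes fell in both comparisons and 1 rose in both, none was called in opposite directions, 1 was called under mock alone and 2 under DEX alone. This overlap was not counted over all probe sets, so whether it is particular to the set cannot be told. Over the 42 genes, which are not independent, the log2 changes under DEX and under mock correlated at r = 0.977 (rho = 0.902); the values come from separate arrays normalised together. Markers of other tissues differed here too, RCA by 1.46, PSAN by 1.80, AT2G28490 by 2.36 and PAP85 by 2.08. FAMA (0.17, limma adjusted p = 0.19) and the root hair genes EXPA18 (-0.15) and EXPA7 (-0.10) were not called. The part of these markers was not tested.

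**Figure D2:**
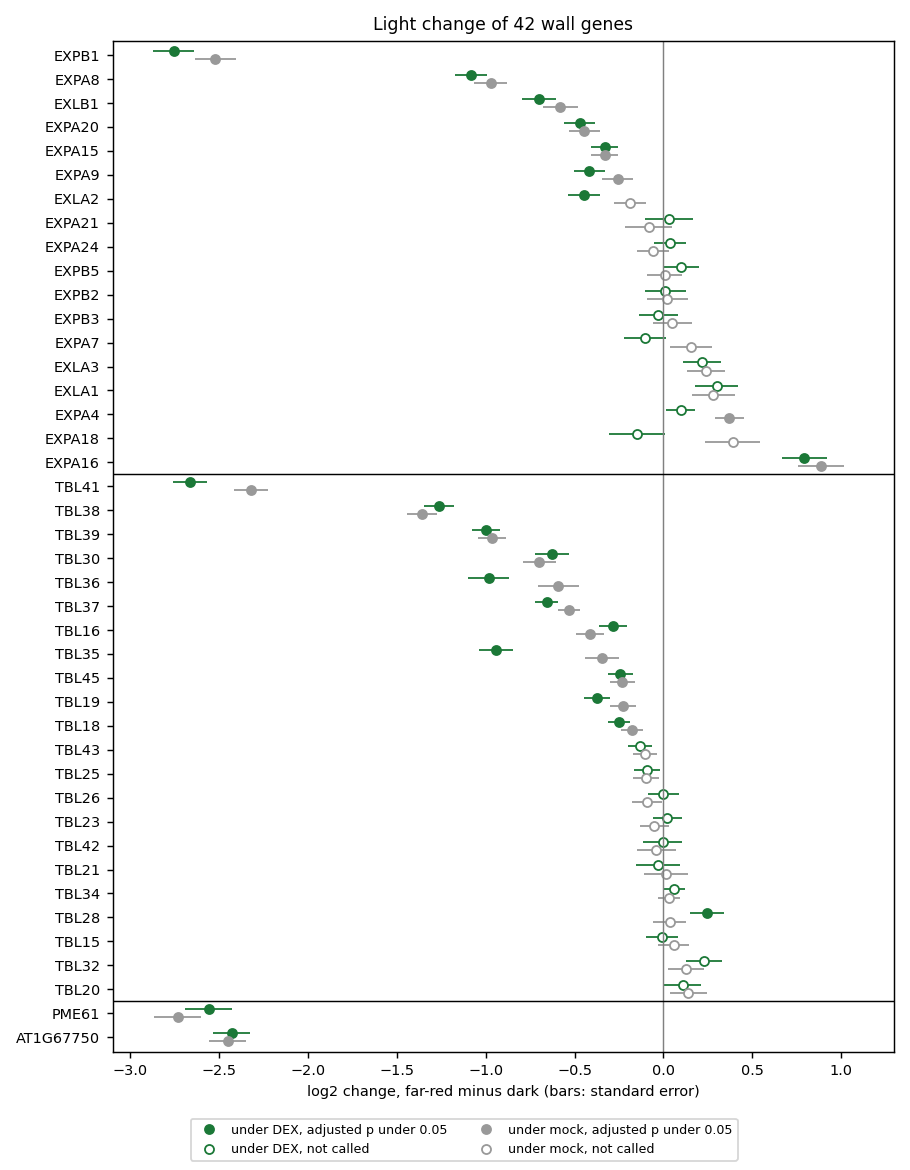
Points give the log2 change of far-red minus dark for each of the 42 genes, under DEX (green) and under mock (grey), with bars of 1 standard error; filled points are called at an adjusted p under 0.05 and lines part the expansin, TBL and pectin enzyme genes. EXPB1, TBL41, PME61 and AT1G67750 lie beyond -2.3 in both, EXPA16 lies between 0.79 and 0.89, and TBL35 is the gene whose points lie furthest apart.

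EXPB1 gave 4.97, 4.99, 4.94 and 4.64 in far-red DEX, against 7.76, 7.71, 7.65 and 7.45 in dark DEX, a 6.76-fold fall (log2 change -2.76 ± 0.12, adjusted p = 1.47e-13). TBL41 gave 7.51, 7.59, 7.38 and 7.28 in far-red DEX, against 10.33, 9.91, 10.03 and 10.15 in dark DEX. It fell 6.34-fold (log2 change -2.66 ± 0.10, adjusted p = 1.64e-14), and like EXPB1 it kept a wide gap between the groups. PME61 gave 5.31, 5.09, 5.57 and 5.42 in far-red DEX, against 8.02, 8.11, 7.73 and 7.77 in dark DEX, a 5.90-fold fall (log2 change -2.56 ± 0.13). AT1G67750 gave 6.52, 6.40, 6.75 and 6.56 in far-red DEX, against 9.17, 9.01, 8.92 and 8.84 in dark DEX, a 5.39-fold fall (log2 change -2.43 ± 0.10). Both genes had all far-red arrays below all dark arrays.

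EXPA8 gave 8.90, 8.96, 9.21 and 8.97 in far-red DEX, against 10.16, 10.21, 10.05 and 9.94 in dark DEX, and fell 2.12-fold. TBL38 gave 9.38, 9.34, 9.20 and 9.36 in far-red DEX, against 10.70, 10.68, 10.61 and 10.36 in dark DEX, and fell 2.40-fold. TBL39 gave 8.65, 8.72, 8.81 and 8.59 in far-red DEX, against 9.78, 9.74, 9.60 and 9.63 in dark DEX. Each of these genes had all far-red arrays below all dark arrays. EXLB1 gave 7.86, 7.74, 7.86 and 7.87 in far-red DEX, against 8.57, 8.47, 8.66 and 8.43 in dark DEX, and fell by 0.70 ± 0.10. EXPA16 gave 6.22, 6.03, 6.36 and 6.35 in far-red DEX, against 5.62, 5.38, 5.70 and 5.08 in dark DEX, and rose by 0.79 ± 0.13 (adjusted p = 3.18e-05).

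The genes called in 1 of the light comparisons were EXPA4, EXLA2 and TBL28. EXPA4 gave 8.54, 8.29, 8.40 and 8.25 in far-red DEX, against 8.26, 8.19, 8.39 and 8.24 in dark DEX, overlapping groups with a log2 change of 0.10 ± 0.08 (adjusted p = 0.388). EXLA2 fell by 0.45 ± 0.09 under DEX (adjusted p = 0.000375), against a log2 change of -0.19 ± 0.09 under mock (adjusted p = 0.106). Under mock EXLA2 was called with array weights (adjusted p = 0.0266), without dark mock replicate 1 (0.0143) and without far-red mock replicate 4 (0.0247), in a range of 0.0143 to 0.313. TBL28 rose by 0.25 ± 0.09 under DEX (adjusted p = 0.0419), against 0.04 ± 0.09 under mock. The call of TBL28 was lost with a trended and robust prior (adjusted p = 0.0581) and without any 1 of 6 of the 8 arrays compared, with adjusted p up to 0.123 without dark DEX replicate 2. For none of these 3 genes did the difference between the light changes pass its test (limma, adjusted p = 0.307 for EXPA4, 0.418 for EXLA2 and 0.562 for TBL28; EXPA4 is under 0.05 unadjusted).

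**Figure D3:**
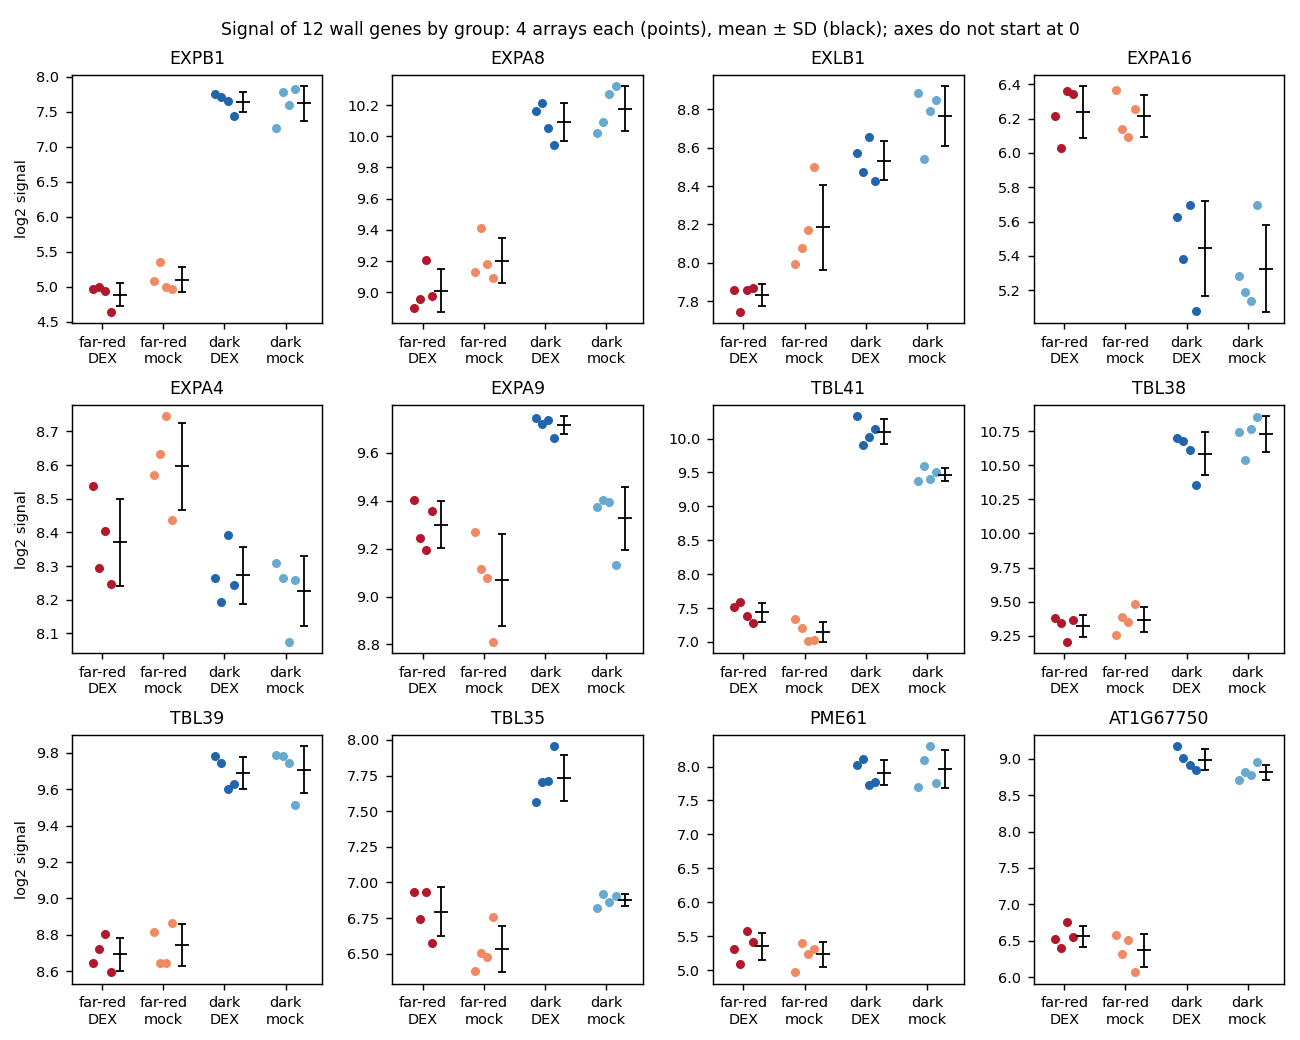
Each panel shows the log2 signal of 1 gene on the 4 arrays of each group (points) with the mean and SD beside them in black, groups running far-red DEX, far-red mock, dark DEX and dark mock; the vertical axes differ between panels and do not start at 0. TBL35, TBL41 and EXPA9 have dark DEX arrays above all dark mock arrays, while EXPB1, TBL38, TBL39 and PME61 have dark DEX and dark mock arrays at overlapping levels.

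The third comparison, DEX against mock in dark, asks which genes respond within 2 h when FHY3-GR may enter the nucleus of dark-grown seedlings. It called 3 of the 42 genes, TBL35, TBL41 and EXPA9, all higher. That is 7.14% of the set, close to the 5.9% called over all probe sets (2.34% higher and 3.56% lower), so the count says nothing about the set as a whole. At an unadjusted p under 0.05 there were 9 of 42 genes, 7 higher and 2 lower, against 16.3% of all probe sets. The size of the typical change was 0.06 on the log2 scale over the 42 genes and 0.08 over all probe sets (medians of sizes). The 2 measured seed storage genes moved in the same arrays, AT2G28490 by -1.95 and PAP85 by -1.69 (in far-red -0.07 and -0.27), and their part in these changes was not tested.

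TBL35, which with TBL34 adds acetyl groups to xylan, gave 7.57, 7.71, 7.71 and 7.96 in dark DEX, against 6.82, 6.92, 6.86 and 6.90 in dark mock. The lowest DEX array lay 0.64 above the highest mock array, and the gene rose 1.81-fold (log2 change 0.86 ± 0.10, adjusted p = 3.18e-06). TBL41 gave 10.33, 9.91, 10.03 and 10.15 in dark DEX, against 9.37, 9.59, 9.41 and 9.50 in dark mock, again without overlap. It rose 1.55-fold (log2 change 0.64 ± 0.10, adjusted p = 0.000131). EXPA9, an alpha expansin, gave 9.74, 9.72, 9.74 and 9.66 in dark DEX, against 9.37, 9.40, 9.40 and 9.13 in dark mock. Its DEX arrays were tightly grouped above all mock arrays, a 1.31-fold rise (log2 change 0.39 ± 0.09, adjusted p = 0.00711), and dark mock replicate 4 stood below the other mock arrays. Without that array the change was 0.33 (adjusted p = 0.0371).

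TBL41 aside, the genes that fell most in far-red did not pass for DEX in dark. PME61 had a log2 change of -0.05 with a 95% interval of -0.33 to 0.22, EXPB1 one of 0.02 (-0.22 to 0.26), and AT1G67750 one of 0.17 (-0.05 to 0.39). TBL38 stood at -0.14 (-0.32 to 0.03), TBL39 at -0.02 (-0.18 to 0.15) and EXPA8 at -0.08 (-0.27 to 0.11). These intervals exclude DEX changes of the size of the light changes of the same genes. EXPA18 and EXPA7, the root hair expansins, had log2 changes of 0.45 ± 0.16 and 0.27 ± 0.12 (adjusted p = 0.11 and 0.258), and each was lowest of all 16 arrays on dark mock replicate 1. EXLA3 stood at -0.29 ± 0.11 (adjusted p = 0.133) with DEX and mock arrays apart.

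**Figure D4:**
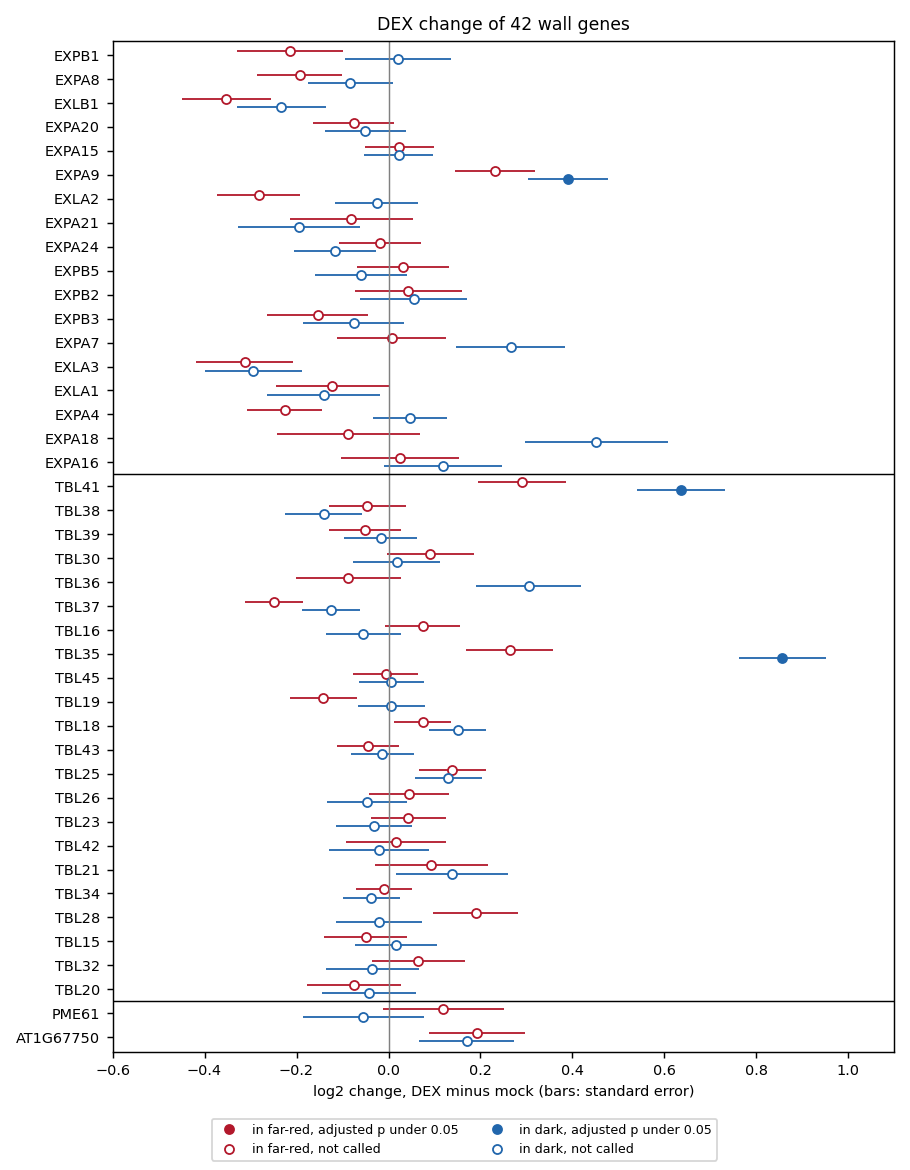
Points give the log2 change of DEX minus mock for each of the 42 genes, in far-red (red) and in dark (blue), with bars of 1 standard error; filled points are called at an adjusted p under 0.05. The 3 filled points are TBL35 (0.86), TBL41 (0.64) and EXPA9 (0.39) in dark, and no gene is called in far-red.

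The fourth comparison asks the same in far-red light. None of the 42 genes was called (limma), where 1.04% of all probe sets were (0.919% higher and 0.119% lower). Of the 42 genes 9 had an unadjusted p under 0.05, 3 higher and 6 lower, against 10.0% of all probe sets. The 3 genes that rose in dark had positive changes that did not pass: TBL35 gave 6.93, 6.74, 6.93 and 6.57 in far-red DEX, against 6.38, 6.51, 6.48 and 6.76 in far-red mock (log2 change 0.26 ± 0.10, adjusted p = 0.305), groups that overlap through far-red mock replicate 4. TBL41 gave 7.51, 7.59, 7.38 and 7.28 in far-red DEX, against 7.34, 7.21, 7.02 and 7.03 in far-red mock (0.29 ± 0.10, adjusted p = 0.232). EXPA9 gave 9.40, 9.24, 9.19 and 9.36 in far-red DEX, against 9.27, 9.11, 9.08 and 8.81 in far-red mock (0.23 ± 0.09, adjusted p = 0.328). In both of these the highest mock array lay above the lowest DEX array.

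The lowest adjusted p in far-red was that of TBL37, a bright gene, with 9.54, 9.63, 9.65 and 9.68 in far-red DEX, against 9.95, 9.79, 9.85 and 9.92 in far-red mock. The groups did not overlap, and the log2 change was -0.25 ± 0.06 (adjusted p = 0.0675). It was called with a trended and robust prior (adjusted p = 0.0223) and without dim probe sets (0.0447), in a range of 0.0223 to 0.236 over the settings and samples tried. The expansin-like genes EXLB1, EXLA3 and EXLA2 had log2 changes of -0.35, -0.31 and -0.28 (adjusted p = 0.11, 0.257 and 0.211). All 4 expansin-like genes had their highest far-red mock value on replicate 4: 11.79 for EXLA1, 9.86 for EXLA2, 8.41 for EXLA3 and 8.50 for EXLB1. Without that array the changes of EXLB1, EXLA3 and EXLA2 were -0.25, -0.20 and -0.21.

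The last test asks whether the DEX response differs between far-red and dark, which is the same as asking whether the light change differs between DEX and mock. TBL35 was the 1 gene of 42 called (2.38%), where 2.15% of all probe sets were (1.7% higher and 0.448% lower). DEX changed TBL35 by 0.26 in far-red and by 0.86 in dark, a difference of -0.59 ± 0.13 (adjusted p = 0.0197). In terms of light, TBL35 fell by 0.94 ± 0.10 under DEX and by 0.35 ± 0.10 under mock. The adjusted p of the difference ran from 0.0122 to 0.0488 over the other settings and samples tried, the highest without far-red DEX replicate 4.

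TBL41, whose DEX change was 0.29 in far-red and 0.64 in dark, had a difference of -0.35 with a 95% interval of -0.63 to -0.06 (adjusted p = 0.255). For EXPA9 the difference was -0.16 (-0.42 to 0.10), and for EXPB1 -0.23 (-0.58 to 0.11). These tests did not pass, and they do not show that the responses were alike. At an unadjusted p under 0.05 there were 5 of 42 genes, where 12.6% of all probe sets passed, so the count says nothing about the set. They were TBL35, TBL36, TBL41, EXPA18 and EXPA4, all with a lower DEX change in far-red. The directions at that threshold were not counted over all probe sets.

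In 3 cases members of the set are next to each other on the chromosome among protein-coding genes of the RefSeq annotation: TBL30 and TBL28, TBL19 and TBL21, and EXLA3 and EXLA1. TBL30 fell in far-red by 0.63 under DEX and 0.70 under mock, and its neighbour TBL28 had log2 changes of 0.25 and 0.04. TBL19 fell by 0.38 and 0.23, and TBL21 had changes of -0.03 and 0.01. Neighbours in the TBL family therefore did not share a light call in the same direction. EXLA3 and EXLA1 had similar light changes that did not pass in the main analysis, 0.22 and 0.30 under DEX and 0.24 and 0.28 under mock. Over the other settings and samples tried, the adjusted p of EXLA3 ran from 0.0384 to 0.359 under DEX and from 0.0229 to 0.347 under mock. That of EXLA1 ran from 0.0115 to 0.173 under DEX and from 0.0110 to 0.338 under mock. Each range lies on both sides of the threshold.

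Beside the set, 12 other wall genes of a wider list could be measured. In far-red 4 fell and 1 rose under mock, 41.7% of the 12 against 38.6% of all probe sets. Under DEX 4 fell and 2 rose, 50% against 39.7%. CSLC04 and CSLC5, glucan synthases of xyloglucan synthesis, fell by 0.69 each under DEX and by 0.57 and 0.48 under mock. CSLC6 and CSLC12 of the same family were not called in any comparison. Their light changes were -0.15 and 0.09 under DEX and -0.20 and -0.08 under mock. AT3G03210 (AXY9), which acts in wall acetylation, fell by 0.35 and 0.30. ADPG1, a polygalacturonase, fell by 0.27 and 0.43, and CSLA03, of the glucomannan synthase family, rose by 0.37 and 0.21. COB, a gene of cellulose orientation, and CSLD2 were not called in any comparison.

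DEX changed 1 of these 12 in dark, 8.33% against 5.9% of all probe sets. It changed none in far-red, where 1.04% of all probe sets were called (limma). At an unadjusted p under 0.05 there was 1 of 12 in far-red, against 10.0% of all probe sets. These shares rest on few genes and say nothing about the list. GAUT15, of the pectin galacturonosyltransferase family, gave 8.43, 8.54, 8.45 and 8.24 in dark DEX, against 9.37, 8.87, 9.20 and 9.24 in dark mock. The groups did not overlap and the gene fell by 0.75 ± 0.09 (adjusted p = 1.09e-05). In far-red it gave 9.43, 9.50, 9.35 and 9.42 under DEX, against 9.49, 9.29, 9.29 and 9.23 under mock, and the difference of the responses was 0.85 ± 0.13 (adjusted p = 0.000599). Its light change was 1.01 ± 0.09 under DEX and 0.15 ± 0.09 under mock.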

How the data were processed

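RNA of whole seedlings was hybridised to 16 Affymetrix ATH1 arrays. The authors deposited 1 log2 signal for each probe set and array, already normalised, with RMA and affy per the submitters' processing notes. No version or setting is given in the sources used. A change of all transcripts together would therefore not be seen. No depth or detection call is given, so the 4 arrays per group limit the precision.

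Groups and replicate numbers come from the sample titles, and 0 columns were left unused. Of 22810 probe sets, 64 manufacturer controls were left out and 22746 tested; 13513 are paired with 1 gene, 503 with several and 8730 are unnamed here. Symbols were updated by gene ID through the RefSeq table of TAIR10.1, used for names and gene order only. For each gene the probe set with the highest mean over 16 arrays was used; each of the 42 members has 1 such probe set.

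One limma 3.58.1 model (R 4.3.3) with a mean per group was fitted on all probe sets (19.65 degrees of freedom), after a test on simulated data. The members, lists and naming rule were chosen with earlier results of these data known. Per-array values are given for EXPB1, EXPA8, TBL41, TBL38, PME61, AT1G67750, every member called for DEX or for the difference, and the 3 largest called rises and falls of each family for light under mock; other members given with array values were picked after their values were seen. The ± of a log2 change is its standard error. Of 24 same-number array pairs of different groups, 7 had deviations from the group means correlated above 0.1 (range -0.15 to 0.32). Pairs of different numbers were not set beside them, so whether the numbers pair the samples was not settled. No sequence table was used here.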

Additional observations from a re-analysis of the deposited data

Results flagged for a closer look

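TBL35 is given because its DEX response differed between the lights: the response in far-red minus that in dark was -0.59 on the log2 scale.

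In each of the 168 sets of 4 arrays (42 genes in 4 groups), the gap between an end array and the nearest of the others was divided by the range. In 5 sets this ratio passed Dixon's 95% critical value, which chance does in about 1 in 20. It was 0.897 for TBL34 in dark DEX, where replicate 2 stood at 6.75 and the other 3 arrays at 6.56 to 6.58. It was 0.841 for TBL39 in dark mock, with replicate 4 at 9.51 and the others at 9.74 to 9.79, and 0.894 for EXPA9 in the same group, with replicate 4 at 9.13 and the others at 9.37 to 9.40. For EXLB1 in far-red DEX it was 0.89, with replicate 2 at 7.74 and the others at 7.86 to 7.87. For EXPB1 in far-red DEX it was 0.841, with replicate 4 at 4.64 and the others at 4.94 to 4.99.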

How the results depend on the processing

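The calls of the 42 genes were recomputed under 23 other settings, 22 for the difference of DEX responses, and the 8 dim genes under 1 fewer; the other wall genes and synonym genes were not recomputed. The settings were a replicate block, quantile normalisation, a trended and robust prior, array weights, no dim probe sets, only the groups compared, the mean of a gene's probe sets, and each of 16 arrays left out. No called gene changed direction. Of the called genes, 18 of 21 kept their call in every setting for light under mock, 21 of 22 for light under DEX, 3 of 3 for DEX in dark and 1 of 1 for the difference. The count of risers for light under mock was 4 with the replicate block, and for light under DEX it was 4 with the block and 1 with a trended and robust prior, against 2 each in the main analysis. With the block 1 gene, EXLA3, fell with DEX in dark, against 0. For DEX in far-red 2 genes fell with the trended and robust prior (TBL37 and EXLB1) and 1 without dim probe sets (TBL37), against 0. The block is reported as an alternative, since whether the numbers pair the samples was not settled, and the cause of these shifts was not tested. With 1 array left out, light under mock had 2 to 4 higher and 17 to 19 lower calls, light under DEX 1 to 3 higher and 20 lower, DEX in dark 3 higher and 0 to 1 lower, DEX in far-red 0 in either direction, and the difference 0 higher and 1 lower. The risers numbered 4 for light under mock without dark mock replicate 4 or far-red mock replicate 3, and 1 for light under DEX without dark DEX replicate 2 or 4 or far-red DEX replicate 1 or 2. DEX in dark had its 1 faller, EXLA3, without far-red mock replicate 4. No signal over background is given, so folds of dim genes are limited by an unknown floor.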

Other observations

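Of genes measured here, 4 carry a name of these families only as a synonym in the RefSeq table and so fall outside the set; they were looked at after the values of the set had been seen. AT4G30380, with the synonym EXLB2, gave 8.04, 8.14, 8.10 and 7.54 in dark DEX, against 9.32, 8.77, 9.30 and 9.42 in dark mock. The groups did not overlap, and the gene fell by 1.25 on the log2 scale (SE 0.13, adjusted p = 1.52e-06 by limma). In far-red it gave 8.93, 8.87, 8.94 and 8.86 under DEX, against 8.93, 8.80, 9.04 and 8.69 under mock, and the difference of the responses was 1.28 ± 0.18 (adjusted p = 0.000325). Its light change was 0.94 under DEX and -0.34 under mock, both called and opposite in sign.

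ATPMEPCRB (PME41, a pectin methylesterase gene) gave 9.21, 9.15, 8.89 and 9.11 in dark DEX, against 9.68, 9.65, 9.60 and 9.63 in dark mock, without overlap. It fell by 0.55 ± 0.11 (adjusted p = 0.00243 by limma). Its light change was 0.02 ± 0.11 under DEX (not called) and -0.47 ± 0.11 under mock (adjusted p = 0.00159). In far-red its DEX change was -0.07 ± 0.11, and the difference of responses was not called (0.48 ± 0.15, adjusted p = 0.13). AT2G31110 (TBL40) fell in far-red by 0.50 under DEX and 0.23 under mock, and AT4G02300 (PME39) was not called in any comparison.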
